A study of Mus musculus with 4 samples.

Results

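The 9 genes described here, Alpl, Phospho1, Enpp1, Ank, Slc20a1, Slc20a2, Phex, Smpd3 and Slc13a5, encode enzymes and transporters that handle phosphate, pyrophosphate, phospholipid and citrate in mineralizing cartilage and bone. They were listed by name, by a rule that uses no measured value although earlier results of these data were known, and are 9 of the 31053 genes in the count matrix. The question addressed was which hypertrophic chondrocytes (HCs), osteoblast stages and other cells of the growing tibia carried the transcripts of each gene, and whether osteoblasts descended from HCs differed from the others. The data are 1 single-cell RNA library of the proximal and distal tibia, made from 2 tibiae of 1 male mouse at postnatal day 6 and deposited as 4 sequencing entries of that library. The mouse was Col10a1Cre;Rosa26-Tdtomato;Irx3 +/Δ;Irx5 +/-, labelled as the Irx3/5 heterozygous control. Irx3 and Irx5 encode transcription factors. Every cell compared below is heterozygous for Irx5. The study describes the Irx3 deletion as specific to HCs, so HCs and their descendants would carry it while other cells would keep both copies. No group with the normal dose of both genes was used here. Cre expressed from Col10a1, the collagen X gene of HCs, switches on the tdTomato reporter in HCs, and their descendants keep the mark.

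Bone mineral is a calcium phosphate that forms on collagen and, at first, in small vesicles shed by HCs and osteoblasts. Its start depends on the balance between phosphate and pyrophosphate outside the cell: tissue-nonspecific alkaline phosphatase, the product of Alpl, destroys the inhibitor pyrophosphate and frees phosphate, whereas the products of Enpp1 and Ank raise extracellular pyrophosphate. Phospho1 frees phosphate from phosphocholine inside vesicles, Slc20a1 and Slc20a2 carry phosphate into cells, Phex is a membrane endopeptidase of late osteoblasts and osteocytes that is mutated in X-linked hypophosphataemia, Smpd3 cleaves sphingomyelin to ceramide and phosphocholine, and Slc13a5 imports citrate, a component of bone mineral.

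On GRCm38 with the GENCODE M21 annotation, Alpl (ENSMUSG00000028766) lies at chr4:137741733-137796384, Enpp1 (ENSMUSG00000037370) at chr10:24637914-24712159, Phex (ENSMUSG00000057457) at chrX:157162075-157415312, Smpd3 (ENSMUSG00000031906) at chr8:106252548-106337988 and Slc13a5 (ENSMUSG00000020805) at chr11:72241989-72267222, all on the minus strand. Phospho1 (ENSMUSG00000050860) lies at chr11:95824499-95832140, Ank (ENSMUSG00000022265) at chr15:27466677-27594909, Slc20a1 (ENSMUSG00000027397) at chr2:129198764-129211616 and Slc20a2 (ENSMUSG00000037656) at chr8:22476788-22569612, all on the plus strand. RefSeq promoter sequences of GRCm38.p6 matched 7 of the 9 genes with 10 start sites; Slc20a2 and Smpd3 were not among them. The 250 bases before the start are printed below for 3 genes whose transcripts peaked in different osteogenic cells: Alpl in immature osteoblasts, Enpp1 in stromal progenitors and osteocytes, and Phex in osteocytes. Capitals mark matches, on either strand, to the GC box GGGCGG or to the RUNX core TGTGGT, the letters read by the osteoblast factor Runx2 and its relatives, and the last base printed is the base before the start.
Alpl, first start, chr4:137796385-137796634, minus strand: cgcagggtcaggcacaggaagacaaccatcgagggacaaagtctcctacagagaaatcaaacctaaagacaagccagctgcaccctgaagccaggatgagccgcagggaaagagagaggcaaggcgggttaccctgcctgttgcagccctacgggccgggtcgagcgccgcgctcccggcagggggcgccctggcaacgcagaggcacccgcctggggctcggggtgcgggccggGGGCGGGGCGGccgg
Enpp1, chr10:24712160-24712409, minus strand: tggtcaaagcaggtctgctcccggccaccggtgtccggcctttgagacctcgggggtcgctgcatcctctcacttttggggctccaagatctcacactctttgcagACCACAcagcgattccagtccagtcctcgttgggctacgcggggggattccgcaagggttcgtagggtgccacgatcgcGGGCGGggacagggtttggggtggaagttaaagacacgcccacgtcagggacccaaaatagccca
Phex, chrX:157415287-157415536, minus strand: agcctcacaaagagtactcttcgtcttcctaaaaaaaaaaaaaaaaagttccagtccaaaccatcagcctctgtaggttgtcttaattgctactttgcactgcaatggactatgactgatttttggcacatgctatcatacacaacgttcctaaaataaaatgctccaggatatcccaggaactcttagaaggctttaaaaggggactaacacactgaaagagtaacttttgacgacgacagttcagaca
The Alpl window held 2 overlapping GC boxes 10 and 15 bases before the start and was rich in G and C (68.4%). The Enpp1 window held 1 RUNX core, read as ACCACA on the printed strand 144 bases before the start, and 1 GC box 65 bases before the start. The Phex window held neither motif, nor the TATA box TATAAA, and its G and C share was 39.2%, against a median of 52.4% over 32851 mouse promoters of the same length. Over the 10 windows of the 7 genes, a GC box was found in 8 (6 genes), against 32.7% of all promoters, a RUNX core in 2 (Enpp1 and Slc20a1), against 14% of all promoters, and a TATA box in 1 (the second start of Alpl), against 12.4%. These matches are letters in a window and no evidence of binding.

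The matrix held 158281984 UMIs, which are counted transcript molecules, in 14181 barcodes with a median of 8235. Of these, 8255 cells had at least 1600 genes and passed limits on mitochondrial and ribosomal reads, with a median of 13957 UMIs and a range of 2623 to 85279. They fell into 34 clusters, drawn without the 9 genes, and 20 classes were named after marker genes that include none of the 9 ("X-like"), while 220 cells in 2 clusters, 145 of them called doublets, stayed without a name. The classes used most are maturing chondrocyte-like (1192 cells), pre-HC-like (355), HC-like (105), marrow stromal progenitor-like (309), immature osteoblast-like (475), mature osteoblast-like (355) and osteocyte-like (38). The HC-like cells carried Col10a1 at 11303 CPM (UMIs per 1000000 UMIs of the class) against 1034 CPM in pre-HC-like cells, and 84.8% of them were HC-derived, which means that they held more than 14 UMIs of WPRE, an element of the reporter transcript. Among the other genes on the HC list, Ibsp was higher in HC-like than in pre-HC-like cells (4084 against 159 CPM). Mef2c (309 against 573 CPM), Runx3 (42.8 against 131 CPM) and Ihh (112 against 153 CPM) were lower. The 10 leading genes of the HC-like cells also held F13a1 and Fn1, which stand on the monocyte list. In them the leukocyte gene Ptprc was at 10.2 CPM and the neutrophil gene Ngp at 482 CPM, against 1.34 and 13.4 CPM in pre-HC-like cells, and the part of leukocyte RNA in the HC-like values was not tested. Their median depth of 33065 UMIs was the highest of all classes. The progenitor-like cells were led by Cxcl12, Lepr, Adipoq and Lpl of their own list. Mmp13 and Pdgfrb, on the immature osteoblast list, and Mmp9, on the osteoclast list, were also among their 10 leading genes. The osteocyte-like cells had Dmp1 at 2363 CPM, Sost at 98.6 CPM and Irx5 at 426 CPM, but no Fgf23 UMI. Mepe, also on the osteocyte list, was lower in them (1.49 CPM) than in mature osteoblast-like cells (4.99 CPM).

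All values come from 1 animal, so cells are not replicates, no test or p-value is given, and the 95% intervals (exact Poisson for levels, Clopper-Pearson for shares) cover counting error only. "Past 2-fold" below is a rule of size on log2 ratios with 1 CPM added, applied to genes with at least 10 CPM in either class. Free RNA sets a floor: in the 17 clusters of leukocytes and red blood cells, Col2a1 still reached 319 to 4704 CPM and Col1a1 108 to 486 CPM. In 8 blood classes with median depths of 7759 to 25077 UMIs, the share of cells with a UMI after thinning each cell to 5000 UMIs was 3.86 to 5.65% for Smpd3, 2.36 to 5.26% for Slc20a2, 0 to 1.64% for Slc13a5 and 0 to 0.676% for Phex. For the other genes the blood classes differed more among themselves, with 1.27 to 19.7% for Alpl, 0.18 to 9.84% for Enpp1, 0.539 to 16.8% for Ank and 14.2 to 32.1% for Slc20a1. Shares within the ranges of Smpd3, Slc20a2, Slc13a5 and Phex are read as background, which means no more than in blood cells. Levels of Slc20a2 (4.85 to 14.4 CPM) and Smpd3 (5.98 to 25.4 CPM) also differed among the blood classes, both highest in osteoclast-like cells. Whether blood cells carry these 2 transcripts themselves was not tested. For Alpl, Enpp1, Ank and Slc20a1, blood cells may carry the transcripts themselves, so a share within the range is not read as background. The part of free RNA in these ranges was not tested. The median depths of the chondrogenic and osteogenic classes ran from 10117 (progenitor-like) to 33065 UMIs. Levels of different genes are not compared with each other.

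Across the 20 classes, 6 of the 8 genes that reached 10 CPM were highest in an osteogenic class, whereas 11.5% of the 12011 genes at that level were. The study, whose cells include this library, lists Slc20a2 as a marker of immature and Phex and Smpd3 as markers of mature osteoblasts. Their stage was thus known from the same cells, and the count is a description. Alpl peaked in immature osteoblast-like cells, Enpp1 and Slc20a2 in marrow stromal progenitor-like cells, and Ank, Phex and Slc13a5 in osteocyte-like cells. Smpd3 alone among the 8 peaked in a chondrogenic class, the pre-HC-like cells (background 18.2%), and Slc20a1 peaked in blood vessel-like cells. Of all UMIs in the cells kept, osteogenic classes, which supplied 13.3% of the UMIs of all genes, held 89.2% of Phex, 67.2% of Alpl, 56.2% of Slc20a2, 40% of Slc13a5 and 10.6% of Smpd3. Chondrogenic classes, with 33.1% of all UMIs, held 80.3% of the Smpd3 UMIs, 54.1% of the Enpp1 UMIs and 53.1% of the Slc13a5 UMIs, so that Slc13a5 had its highest level in osteocyte-like cells but most of its UMIs in cartilage. After thinning, the mean number of the 9 genes found per cell was 1.3 in maturing chondrocyte-like, 2.04 in pre-HC-like, 2.25 in HC-like, 2.29 in immature osteoblast-like, 2.77 in mature osteoblast-like and 3.32 in osteocyte-like cells, and at most 0.60 in the blood classes.

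**Figure D1:**
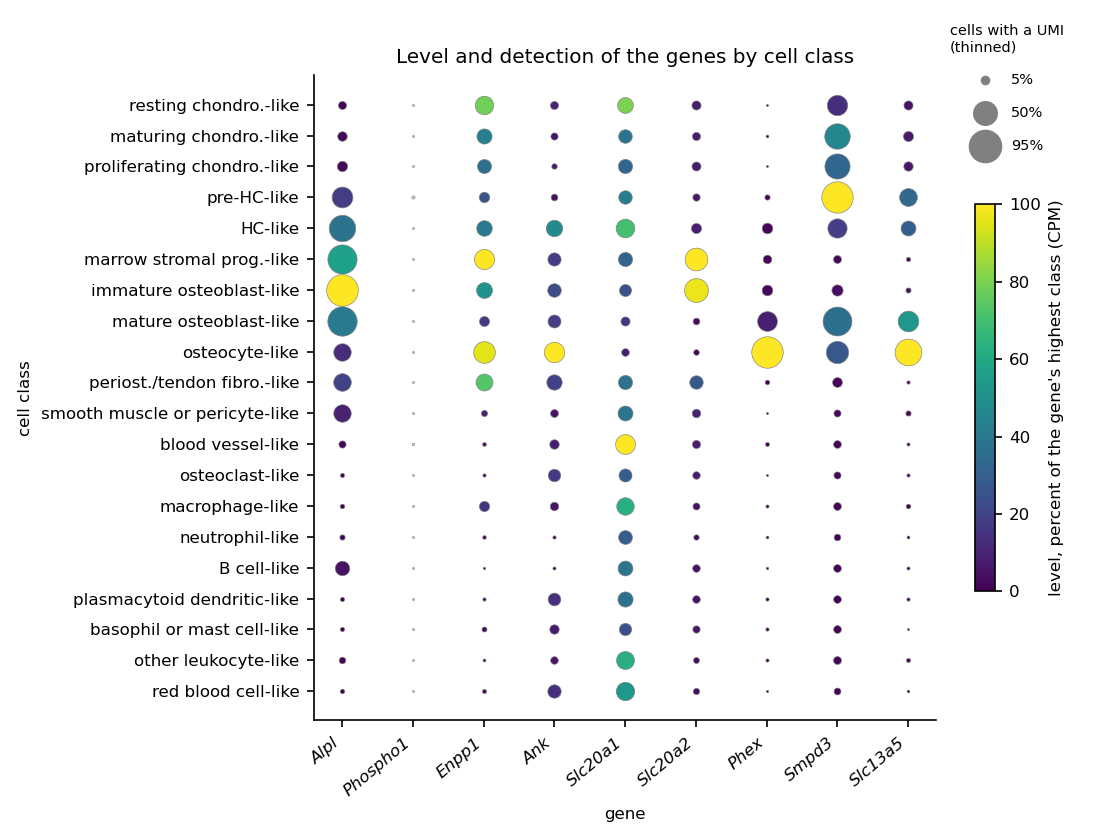
Level and detection of the 9 genes (x axis) in the 20 cell classes (y axis). Colour gives the level as a percentage of the gene's highest class in CPM, and dot area the share of cells with a UMI after thinning to 5000 UMIs; Phospho1, at no more than 1 CPM in any class, is drawn in grey. Alpl is brightest in immature osteoblast-like, Smpd3 in pre-HC-like, Slc20a2 in progenitor-like and immature osteoblast-like, and Phex in osteocyte-like cells.

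Alpl, the phosphatase that hydrolyses pyrophosphate, was at 27.2 CPM (25.2 to 29.3) in maturing chondrocyte-like, 198 (190 to 207) in pre-HC-like and 425 (403 to 447) in HC-like cells. In the osteogenic classes it was at 630 CPM (604 to 657) in marrow stromal progenitor-like, 1118 (1092 to 1144) in immature osteoblast-like, 457 (442 to 472) in mature osteoblast-like and 136 (109 to 167) in osteocyte-like cells. The level thus stepped up toward hypertrophy, was highest in immature osteoblast-like cells and was lower in each later stage, while mature osteoblast-like and HC-like cells, neighbours in the order, had overlapping intervals. Nearly every immature osteoblast-like cell held the transcript: 95.9% after thinning (93.7 to 97.5) and 99.2% before, with a median of 1113 CPM per cell and quartiles of 675 and 1661, and Alpl was among the 10 leading genes of their cluster. In osteocyte-like cells the thinned share was 28.9% (15.4 to 45.9). Among periosteal or tendon fibroblast-like cells, Alpl was at 428 CPM in the cluster led by Aspn and Postn and at 16.3 CPM in the cluster led by Mfap5 and Tnmd. Smooth muscle or pericyte-like cells had 103 CPM (84.3 to 124) and a thinned share of 28.9% (19.8 to 39.4). B cell-like cells stood apart from the other blood classes with 48.2 CPM (43.3 to 53.5) and a thinned share of 19.7%, present in both of their clusters (36.9 and 53.2 CPM), while the other 7 blood classes had 2.15 to 9.24 CPM.

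Phospho1, the phosphocholine phosphatase of matrix vesicles, could not be assessed. Only 24 UMIs were found in all barcodes, 19 of them in 18 of the cells kept, and 10 of these in pre-HC-like cells (0.960 CPM, 0.460 to 1.77). HC-like cells had none, and a count of 0 allows up to 3 counts or 0.851 CPM there. Osteocyte-like cells also had none, which allows up to 4.48 CPM. In GENCODE M21 the last 500 bases of Phospho1-201, from which a 3′ library draws its reads, lie wholly within exons of Zfp652 on the same strand (exon 7 of Zfp652-203, chr11:95830433-95835115, against exon 3 of Phospho1-201, chr11:95830551-95832140) and of Abi3 on the opposite strand. Such an overlap of 90% or more on the same strand was found for 1.62% of 21897 protein-coding genes and for no other of the 9. Reads that fall in 2 genes of the same strand are not counted by the usual 10x pipeline. The annotation behind the counting was not given in the sources used here, and the part of the overlap in the low count was not tested.

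The genes that raise pyrophosphate had their own patterns. Enpp1, the ectoenzyme that makes pyrophosphate from nucleotides, was at 116 CPM (105 to 128) in marrow stromal progenitor-like and 111 (86.8 to 139) in osteocyte-like cells, which did not differ beyond counting error, and at 90.7 (75.2 to 108) in resting chondrocyte-like cells. The osteocyte-like level was 55.7 to 68.8 CPM under 4 other settings, which drew that class with 61 to 76 cells. With the genes themselves allowed among the variable genes, the progenitor-like class held 126 cells and its Enpp1 level also moved by over 1.5-fold. Enpp1 was lowest within the lineages in mature osteoblast-like cells, at 18.9 CPM (15.9 to 22.2), with 29.9 (26.6 to 33.4) in pre-HC-like and 47.1 (40.2 to 54.8) in HC-like cells. Macrophage-like cells, at 17.6 CPM, were the highest of the blood classes, the others having 1.52 to 3.52. Ank, the membrane protein of progressive ankylosis that lets ATP and pyrophosphate leave the cell, was at 218 CPM (184 to 256) in osteocyte-like and 103 (92.9 to 114) in HC-like cells. It was at only 8.35 CPM (6.69 to 10.3) in pre-HC-like and 11.5 (10.2 to 12.9) in maturing chondrocyte-like cells, and at 38.7 to 50.4 in the progenitor-like and osteoblast-like classes. The thinned shares of progenitor-like (16.3%) and mature osteoblast-like cells (15.8%) were within the range of the blood classes, whereas those of osteocyte-like (39.5%) and HC-like cells (25.7%) were above it. Ank was also present in osteoclast-like (37.2 CPM), red blood cell-like (30.5) and plasmacytoid dendritic cell-like cells (30.2), and lowest in B cell-like cells (2.04).

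The ratio of UMIs of these genes to those of Alpl was compared between classes only. Enpp1 over Alpl was 5.71 (3.57 to 9.57) in resting and 1.80 (1.64 to 1.98) in maturing chondrocyte-like cells. It was 0.151 (0.133 to 0.170) in pre-HC-like, 0.111 (0.0939 to 0.130) in HC-like, 0.0533 (0.0480 to 0.0590) in immature osteoblast-like and 0.0413 (0.0347 to 0.0488) in mature osteoblast-like cells. In progenitor-like cells it was 0.184 (0.165 to 0.204), and in osteocyte-like cells it was 0.813 (0.590 to 1.12), above every other osteogenic class. Ank over Alpl was 0.0421 in pre-HC-like, 0.243 in HC-like, 0.0451 in immature osteoblast-like and 1.60 in osteocyte-like cells. It was thus higher in HC-like than in pre-HC-like cells and higher in osteocyte-like than in mature osteoblast-like cells (0.0870). Osteocyte-like levels of Alpl, Enpp1 and Ank moved by over 1.5-fold at resolution 1.5 and with the genes themselves allowed among the variable genes. They also did so at a mitochondrial limit of 20% and with at least 2000 genes per cell. Pre-HC-like Alpl moved by over 1.5-fold at mitochondrial limits of 5% and 20% and with at least 2000 genes. So did HC-like Enpp1 at 5% and HC-like Ank at 20%. The ratios were not recomputed under these settings, so whether their order held there was not tested.

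**Figure D2:**
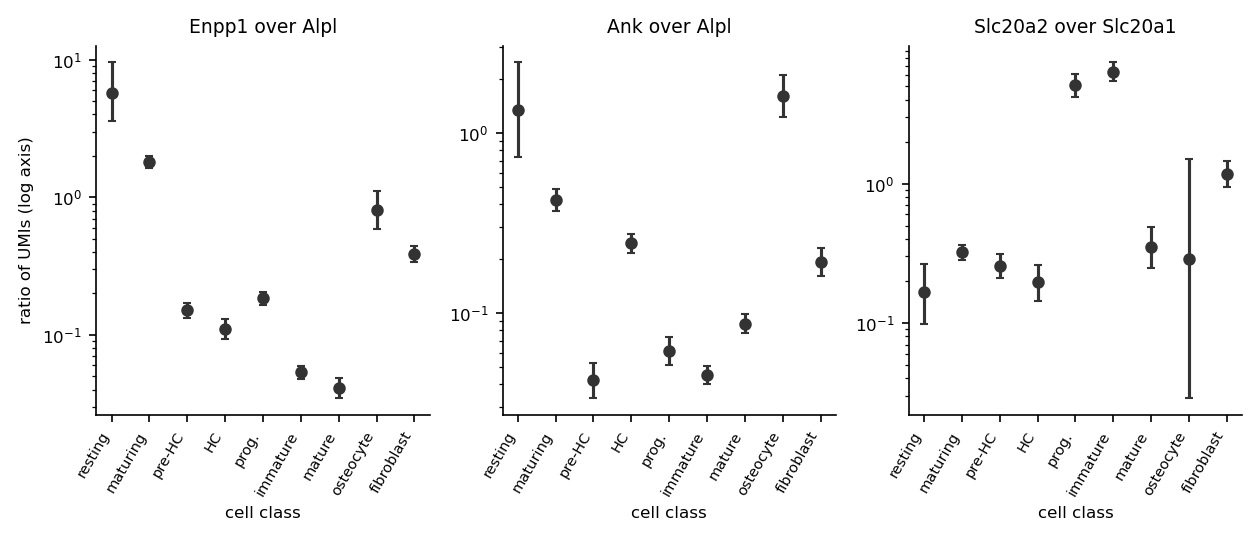
Ratio of summed UMIs of 2 genes (y axis, log scale) within each of 9 cell classes (x axis), with 95% intervals for counting error. Enpp1 over Alpl is lowest in mature osteoblast-like cells (0.0413), and Slc20a2 over Slc20a1 is above 5 in progenitor-like and immature osteoblast-like cells and below 0.4 in the chondrogenic, mature osteoblast-like and osteocyte-like classes.

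The 2 sodium-phosphate cotransporters did not share a pattern. Slc20a2, which encodes PiT2, was at 193 CPM (179 to 209) in marrow stromal progenitor-like and 188 (177 to 199) in immature osteoblast-like cells, which overlapped, and then at 52.6 (45.4 to 60.6) in periosteal or tendon fibroblast-like cells. The progenitor-like level of Slc20a2 moved by over 1.5-fold under 2 other settings. These were the genes themselves allowed among the variable genes (126 progenitor-like cells) and doublet calls left out (94 cells). In mature osteoblast-like cells it was at 6.43 CPM (4.76 to 8.50), where its thinned share of 3.94% was within the background of the blood classes, against 54.0% (49.3 to 58.6) in immature osteoblast-like cells (11.8 and 75.2% before thinning). Slc20a1, which encodes PiT1, was found in every class, highest in blood vessel-like cells (120 CPM, 113 to 127), then in resting chondrocyte-like (96.0, 80.0 to 114) and HC-like cells (84.2, 74.9 to 94.4), whose intervals overlapped in this order. Outside the vessel-like (37.2%) and HC-like cells (33.3%), its thinned share was within or below the range of the blood classes. Its level was lower along the osteogenic classes, from 38.1 CPM (31.9 to 45.2) in progenitor-like through 29.6 (25.6 to 34.1) and 18.4 (15.4 to 21.7) to 10.5 (4.20 to 21.5) in osteocyte-like cells. Slc20a2 over Slc20a1 was 5.08 (4.21 to 6.16) in progenitor-like, 6.34 (5.44 to 7.41) in immature osteoblast-like, 0.350 (0.247 to 0.488) in mature osteoblast-like and 0.195 (0.145 to 0.259) in HC-like cells.

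Phex transcripts lay mainly in late bone cells. It was at 1486 CPM (1395 to 1581) in the 38 osteocyte-like cells, all of which held a UMI, 131 (123 to 140) in mature osteoblast-like, 31.0 (26.9 to 35.6) in immature osteoblast-like and 13.8 (10.1 to 18.2) in progenitor-like cells. After thinning it was found in 94.7% (82.3 to 99.4) of osteocyte-like, 37.2% (32.1 to 42.4) of mature osteoblast-like and 10.5% (5.35 to 18) of HC-like cells (100, 69.3 and 28.6% before thinning). HC-like cells had 21.8 CPM (17.2 to 27.3), above the 4.80 (3.56 to 6.33) of pre-HC-like and the 1.14 (0.766 to 1.64) of maturing chondrocyte-like cells. The HC-like level was 7.99 CPM at a mitochondrial limit of 5%, 12.7 with more variable genes, 13.7 at a limit of 20%, 32.9 as a mean over cells and 34.3 after thinning, each above the pre-HC-like level under the same setting. Other classes had at most 3.85 CPM. Phex and Dmp1 were among the leading genes of the osteocyte-like cluster, so its rank there is a description, and how the small cluster was drawn moved its level: it was 733 CPM at a finer clustering resolution (76 cells) and 1741 with more variable genes (32 cells).

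Smpd3, the neutral sphingomyelinase whose loss in mice leaves cartilage and bone poorly mineralized, was the one gene of the 8 with its highest level in a chondrogenic class. It was at 157 CPM (137 to 180) in resting, 549 (540 to 558) in maturing, 390 (372 to 408) in proliferating and 1187 (1166 to 1208) in pre-HC-like cells, and then at 218 (202 to 233) in HC-like cells, an order that a looser mitochondrial limit turned (given with the comparisons). In the osteogenic classes it was near the background of the blood classes in progenitor-like cells (12.3 CPM, 8.92 to 16.6, thinned share 5.67%), at 43.6 (38.7 to 49.0) in immature osteoblast-like, 434 (420 to 450) in mature osteoblast-like and 323 (281 to 369) in osteocyte-like cells. It was found in 93.8% of pre-HC-like and 79.7% of mature osteoblast-like cells after thinning, but in 35.2% (26.2 to 45.2) of HC-like and 11.6% (8.85 to 14.9) of immature osteoblast-like cells. Mature osteoblast-like cells also carried Col2a1 at 2805 CPM, within the range of the blood clusters. Without the 20 cells at 5000 CPM or more of Col2a1, the other 335 cells had Col2a1 at 375 CPM and Smpd3 at 440 CPM. The last 500 bases of Smpd3-201 overlap Prmt7 on the opposite strand over 49.4% of their length.

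Slc13a5, the citrate transporter, was likewise lower in progenitor-like and immature osteoblast-like cells than in both HC-like and mature osteoblast-like cells. It was at 21.1 CPM (19.3 to 22.9) in maturing chondrocyte-like, 103 (96.6 to 109) in pre-HC-like and 90.5 (80.8 to 101) in HC-like cells, the last 2 overlapping. With other filters they did not: pre-HC-like and HC-like cells had 59.7 and 131 CPM at a mitochondrial limit of 5%, and 23.1 and 146 CPM at 20%, and with at least 2000 genes the pre-HC-like level was 63.0 CPM. In the osteogenic classes it was at 2.87 CPM (1.37 to 5.27) in progenitor-like, 11.2 (8.79 to 14.1) in immature osteoblast-like, 163 (154 to 172) in mature osteoblast-like and 306 (266 to 351) in osteocyte-like cells. The thinned share was 29.9% in pre-HC-like, 21% in HC-like, 2.15% in immature osteoblast-like, 40.6% in mature osteoblast-like and 68.4% in osteocyte-like cells (58.3, 44.8, 5.26, 71.5 and 78.9% before thinning). All classes outside cartilage and bone had at most 3.85 CPM.

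**Figure D3:**
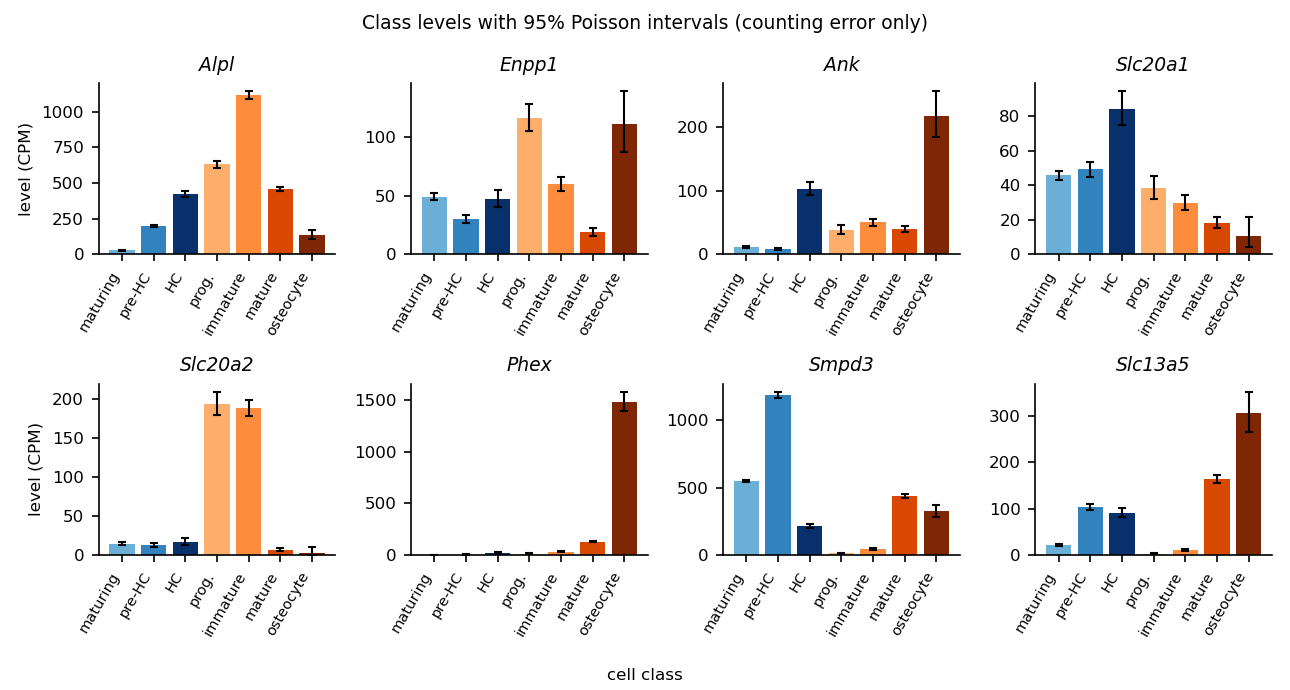
Levels (y axis, CPM, starting at 0) of 8 genes in 7 chondrogenic (blue) and osteogenic (orange) classes (x axis), with 95% Poisson intervals. Smpd3 and Slc13a5 are lower in progenitor-like and immature osteoblast-like cells than in HC-like and mature osteoblast-like cells, and Slc20a2 is high in the former only.

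Compared with maturing chondrocyte-like cells, pre-HC-like cells were past 2-fold higher for 3 of 7 genes (background 2.99% of 6995 genes): Alpl (log2 ratio 2.82), Slc13a5 (2.23) and Smpd3 (1.11). None of the 7 was past 2-fold lower (background 4.16%). HC-like cells were past 2-fold higher for 4 of 8 genes, Alpl (3.92), Phex (3.41), Ank (3.06) and Slc13a5 (2.05), and lower for Smpd3 (-1.33). The background was 23.6% up and 7.14% down of 8137 genes, since HC-like cells differ from maturing chondrocytes in much of their transcriptome, with a median log2 ratio of 0.44 over all genes compared. Between HC-like and pre-HC-like cells, 3 of 8 genes were past 2-fold higher (Ank 3.48, Phex 1.98 and Alpl 1.1; background 22.7%) and Smpd3 was lower (-2.44; background 5.52%). The boundary between both classes depended on the mitochondrial limit: at 20% in place of 10%, HC-like cells numbered 263 and pre-HC-like cells 186, Smpd3 was at 939 CPM in HC-like, 905 in pre-HC-like and 553 in maturing chondrocyte-like cells, so that both directions turned, and Alpl in pre-HC-like cells was at 46.3 CPM.

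The cells were also ordered by Col10a1. The 460 pre-HC-like and HC-like cells were put in 5 bins of 92 cells by their Col10a1 CPM. The first bin held only cells without a Col10a1 UMI. The median cell of the second bin had no Col10a1 UMI either, so the first and second bins are not fully ordered by Col10a1. From the first to the fifth bin, Alpl was at 92.2, 95.8, 164, 330 and 516 CPM and Slc13a5 at 55.6, 47.5, 68.8, 145 and 160 CPM. Ank was at 9.88, 21.2, 8.99, 25.5 and 83.3 CPM. Smpd3 stayed between 1030 and 1286 CPM in the first 4 bins and was at 344 CPM (324 to 365) in the fifth, which held 72 HC-like and 20 pre-HC-like cells. Within the HC-like cells alone, 35 cells each with low, middle and high Col10a1 had Slc13a5 at 21.7 (13.4 to 33.2), 58.6 (46.4 to 73.0) and 181 CPM (158 to 207). Smpd3 was at 198 (171 to 229), 218 (194 to 244) and 232 CPM (206 to 261) in these parts, so it was no lower with more Col10a1 within the class, and its drop in the fifth bin lay between pre-HC-like and HC-like cells. Phex went the other way at the low end, with 39.3 CPM (27.8 to 53.9) in the low-Col10a1 cells against 12.6 and 18.2 CPM, and those cells also carried more Ibsp (9946 against 1862 and 1875 CPM) and Col1a1 (794 against 74.1 and 62.8 CPM).

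**Figure D4:**
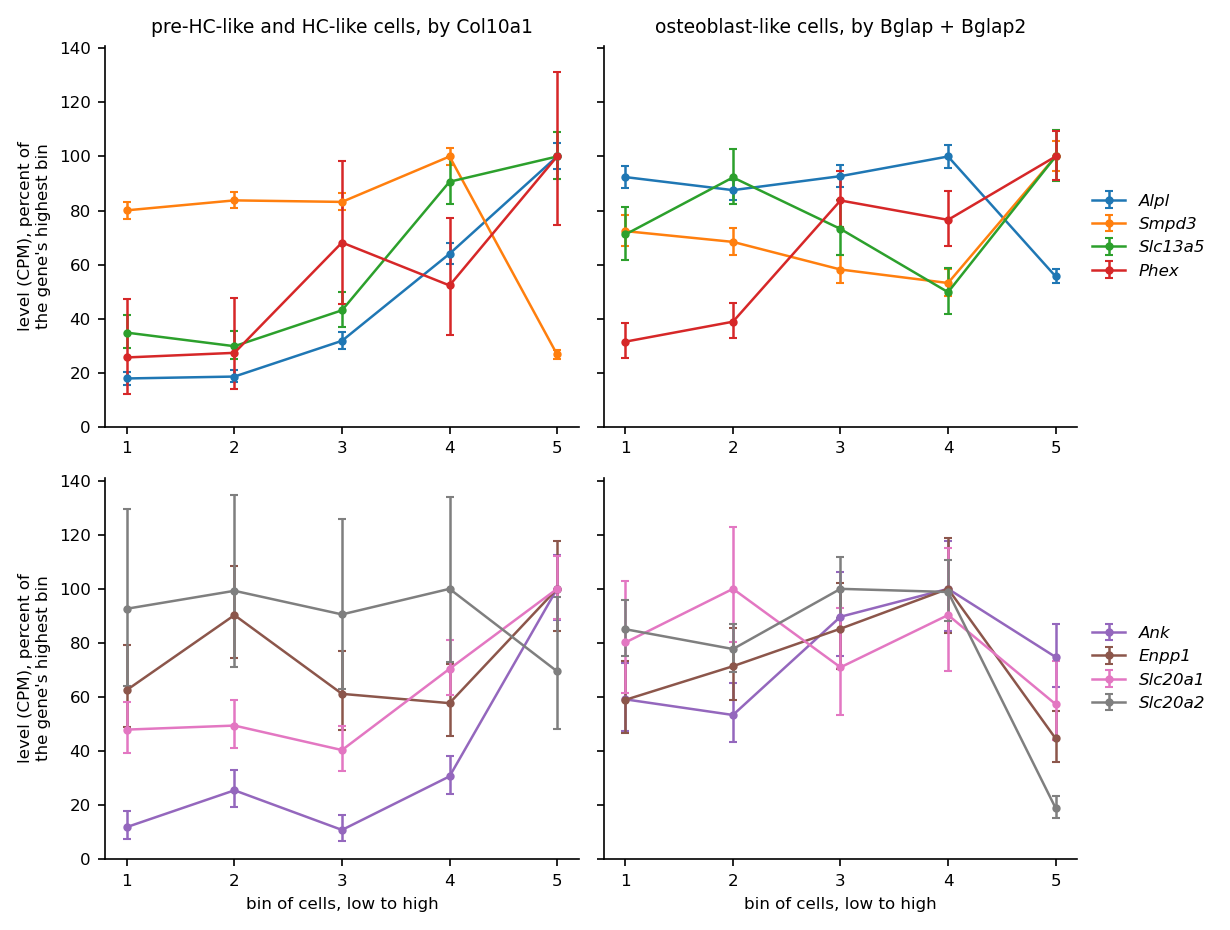
Level of 8 genes as a percentage of the gene's highest bin (y axis) in 5 bins of cells ordered by Col10a1 (left) or osteocalcin (right) from low to high (x axis), with 95% Poisson intervals. Cells without a UMI of Col10a1 (left) or osteocalcin (right) fill the first bin and part of the second. On the left Smpd3 drops in the fifth bin while Alpl, Slc13a5 and Ank reach their highest levels; on the right Alpl and Slc20a2 drop in the fifth bin.

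Along the osteoblast stages, 3 of 8 genes were past 2-fold higher in immature osteoblast-like than in progenitor-like cells (Smpd3 1.74, Slc13a5 1.66 and Phex 1.12; background 2.93% of 8696 genes), and none lower (background 5.15%). For Slc13a5 this rests on 73 and 10 UMIs, and 46 of the 73 lay in 13 HC-derived cells. Its thinned share in progenitor-like cells, 1.33% in HC-derived and in other cells, was within the background of the blood classes. The immature osteoblast-like level moved by over 1.5-fold at resolution 0.6, at a mitochondrial limit of 5%, as a mean over cells and after thinning. A rise of Slc13a5 between these stages is therefore not read from it. From immature to mature osteoblast-like cells, 3 of 8 genes were past 2-fold higher, Slc13a5 (3.75), Smpd3 (3.29) and Phex (2.05), against a background of 4.18% of 8329 genes, and 3 were lower, Slc20a2 (-4.67), Enpp1 (-1.61) and Alpl (-1.29), against 17.1%. Ank and Slc20a1 stayed within 2-fold. Because the study lists Phex and Smpd3 for mature and Slc20a2 for immature osteoblasts from cells that include these, both counts are a description. Osteocyte-like cells were past 2-fold higher than mature osteoblast-like cells for 3 of 7 genes, Phex (3.49), Enpp1 (2.49) and Ank (2.43; background 5.32%), and lower for Alpl (-1.74; background 14.4%). In 5 bins of 166 osteoblast-like cells each, ordered by osteocalcin (Bglap plus Bglap2, the marker of mature osteoblasts), Alpl was between 803 and 917 CPM in the first 4 bins and at 510 (487 to 534) in the fifth, and Slc20a2 was between 98.4 and 127 CPM and then at 23.9 (19.2 to 29.5). Phex was at 39.4, 48.7, 105, 95.9 and 125 CPM. Smpd3 was at 252, 238, 203, 185 and 348 CPM and Slc13a5 at 82.8, 107, 85.2, 58.0 and 116 CPM, so neither rose steadily. The HC-derived share of the bins was 36.7, 39.8, 26.5, 12.0 and 7.23%, and its part in these levels was not tested. Each bin mixes immature and mature osteoblast-like cells, with 55 mature osteoblast-like cells in the first bin and 141 in the fifth. All cells of the first bin had no osteocalcin UMI, so the class name does not mean osteocalcin in each cell. Part of the second bin had none either, so the first and second bins are not fully ordered by osteocalcin.

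Hypertrophic and osteoblast states were also set against each other. Immature osteoblast-like cells were past 2-fold above HC-like cells for Slc20a2 (3.44) and Alpl (1.39), or 2 of 8 genes (background 17.5% of 8984), and below them for 4, Slc13a5 (-2.91), Smpd3 (-2.29), Slc20a1 (-1.48) and Ank (-1.02; background 14.8%). Mature osteoblast-like cells were past 2-fold above HC-like cells only for Phex (2.53; background 7.93%) and below them for 4, Slc20a1 (-2.14), Ank (-1.36), Enpp1 (-1.27) and Slc20a2 (-1.23; background 23.7%). Against periosteal or tendon fibroblast-like cells, immature osteoblast-like cells were higher for 4 of 8, Phex (2.72), Alpl (2.34), Slc20a2 (1.82) and Slc13a5 (1.81; background 5.78%), and lower for none (background 9.8%).

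HC-derived osteogenic cells were compared with the other cells of the same class. With so few genes, the counts of 0 or 1 past 2-fold were near the share over all genes and are not read as a result. By the genotype, HC-derived cells also carry the Irx3 deletion, so descent and Irx3 dose cannot be told apart in these comparisons. The other cells are those with 14 or fewer WPRE UMIs, which included 16 of the HC-like cells. The study chose the cutoff to match its share of tdTomato-positive HCs. The other cells may thus include HC descendants, and their part was not tested. In mature osteoblast-like cells, 120 of which were called HC-derived and 235 not, 0 of 7 genes were past 2-fold in either direction, against 2.49% of 7255 genes. The log2 ratios there ran from -0.63 for Enpp1 (13.6 against 21.7 CPM) to 0.51 for Slc13a5 (203 against 142 CPM), and Alpl was at -0.08. Enpp1 was past 2-fold with a mitochondrial limit of 20% or after thinning, and Slc20a1 was when the other cells had no WPRE UMI. The HC-derived mature osteoblast-like cells had less Bglap (2678 against 15550 CPM) and more Ibsp (9581 against 4849 CPM), and the part of this stage difference in the ratios was not tested. In progenitor-like cells, 75 HC-derived against 234, again 0 of 7 were past 2-fold (background 4.66%). In immature osteoblast-like cells, 83 HC-derived against 392, 1 of 8 was (background 4.74%): Slc13a5, at 30.4 CPM (22.3 to 40.6) against 5.40 (3.56 to 7.86), a log2 ratio of 2.30 (1.68 to 2.91). It rested on 46 UMIs in 13 of 83 cells, with up to 16 in 1 cell, against 27 UMIs in 12 of 392 cells, and after thinning the shares were 4.88% (1.34 to 12.0) and 1.57% (0.577 to 3.38), which overlapped. Of cartilage genes, the HC-derived immature osteoblast-like cells had Col2a1 at 442 against 481 CPM, both within the range of the blood clusters. Acan was at 50.9 against 95.6 CPM, and Panx3, highest in pre-HC-like cells, at 68.8 against 28.2 CPM. Ibsp (3836 against 1137 CPM) and Bglap (1316 against 698 CPM) were higher. The parts of cartilage RNA and of the stage of the cells were not tested. Doublet calls made up 12.0% of the HC-derived and 5.87% of the other cells. The ratio was 2.38 without doublet calls, where that of Phex was 1.01. Alpl was lower in the HC-derived immature osteoblast-like cells within 2-fold, at 838 CPM (793 to 886) against 1202 (1172 to 1233). Among the HC-like cells themselves, 4 of 8 genes were past 2-fold (background 15.7%). The 16 cells with 14 or fewer WPRE UMIs, whose median depth was 19969 UMIs against 35646, had Slc13a5 at 373 CPM against 61.3 CPM in the 89 HC-derived cells, with 37 of their 123 UMIs in 1 cell, Alpl at 819 against 384 CPM, Ank at 45.5 against 109 CPM and 1 UMI of Slc20a2 against 57.

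The other genes of these pathways, 44 in 7 lists, showed where each gene had company. For pyrophosphate and nucleotides, Panx3, a channel that lets ATP out, was at 533 CPM and Ppa1, a cytosolic pyrophosphatase, at 2117 CPM in pre-HC-like cells. Both were past 2-fold lower in HC-like cells, as Smpd3 was. Panx3 is also on the marker list that named the pre-HC-like cells, so its level there is a description. Nt5e, which makes adenosine from AMP, was highest in HC-like cells (246 CPM) and past 2-fold above pre-HC-like cells. For sphingolipid and phosphocholine, Sgms2 makes sphingomyelin, the substrate of Smpd3. It was at 1156 CPM in pre-HC-like, 210 in HC-like, 114 in immature and 419 in mature osteoblast-like cells, the same order as Smpd3 in these classes. Sgms2 was higher in osteocyte-like (690 CPM) and lower in maturing chondrocyte-like cells (234 CPM) than in mature osteoblast-like cells. Smpd3 went the other way in both (323 and 549 CPM, against 434). Enpp6, a choline phosphodiesterase, was at 83.4 CPM in mature osteoblast-like and 149 in osteocyte-like cells. In that list, 2 of 9 genes were past 2-fold higher in mature than in immature osteoblast-like cells (Enpp6 and Sgms2; background 4.18%), and 4 of 6 were higher in HC-like than in maturing chondrocyte-like cells (Chka, Chkb, Pcyt1a and Smpd1; background 23.6%).

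For citrate, 0 of 6 genes were past 2-fold between mature and immature osteoblast-like cells (background 4.18% up and 17.1% down). With so few genes this is near the background and is not read as a result. Slc13a5, not counted in that list, was past 2-fold higher. For phosphate transport, Xpr1, the exporter of phosphate, was highest in osteoclast-like cells (168 CPM), and of the kidney and gut transporters Slc34a1 had 8 UMIs, Slc34a2 16 and Slc34a3 none. No UMI was found of the other alkaline phosphatases Alpi, Alppl2 and Akp3. For the mineral matrix and FGF23 axis, 6 of 8 genes were past 2-fold higher in HC-like than in maturing chondrocyte-like cells (Ibsp, Spp1, Dmp1, Bglap2, Fam20c and Galnt3; background 23.6%), and 5 of 8 were higher in mature than in immature osteoblast-like cells (Ibsp, Dmp1, Bglap, Bglap2 and Galnt3; background 4.18%). Several of these are also markers that named the classes. Osteocyte-like cells were past 2-fold above mature osteoblast-like cells for Ibsp, Dmp1 and Fam20c, the kinase that phosphorylates secreted matrix proteins (351 against 41.6 CPM), as they were for Phex. Fgf23, the hormone that Phex restrains, had 42 UMIs, at 4.18 CPM in blood vessel-like cells. The 3 annexins of matrix vesicles stayed within 2-fold between HC-like, pre-HC-like and maturing chondrocyte-like cells and along the osteoblast stages, except for Anxa6, which was lower in osteocyte-like than in mature osteoblast-like cells (41.8 against 89.5 CPM).

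Across the 34 clusters, the genes most like each of the 9 were sought among 7517 genes by Pearson correlation of log2(CPM + 10), given as a description, since all clusters come from 1 library. Phex was closest to Dmp1 (0.98), Smpd3 to Slc8a3 (0.96), P4ha2 (0.96) and Panx3 (0.95), Slc13a5 to Cgref1 (0.93), Slc20a2 to Kcnk2 (0.93), Gdpd2 (0.88) and Tnfsf11 (0.88), the gene of the osteoclast factor RANKL, Enpp1 to Scarf2 (0.90) and Alpl to Rasl11a (0.86) and Mme (0.86). The closest genes to Ank (Slc35b1, 0.71) and Slc20a1 (Zfand6, 0.69) were less alike, and Phospho1 was too low to be compared.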

How the data were processed

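The authors deposited the raw UMI count of each gene in each barcode and, in a further matrix, of reporter and other added sequences. Cell Ranger 3.1.0, Seurat 3 and the mm10 build are named in the submitters' processing notes. The annotation release was not given in the sources used here. All 4 sequencing entries are 1 library, the matrix names no entry, and 0 columns were left unmapped. Barcodes were kept from 1600 detected genes upward unless mitochondrial UMIs exceeded 10% (449 barcodes) or ribosomal UMIs 50%. Log-transformed counts per 10000 UMIs were used for clustering. Leiden clustering (scanpy 1.11.5, Python 3.11.15, resolution 1, 2000 variable genes without the 9, 30 principal components, 20 neighbours, seed 1) was followed by naming from 23 marker lists. Clusters were first assigned a lineage by Ptprc (50 CPM) and collagen (5000 CPM). Within it the name followed the list best represented in the 10 leading genes, with 3 of its markers at 10 CPM or above, and ties or absent markers were settled by mean z-score (at least 1 where none was present). Proliferating chondrocytes were set by Top2a in over 50% of cells, and osteocyte-like cells were split off the mature osteoblast-like cluster at resolution 0.5. Scrublet called 622 of 14181 barcodes (4.39%) doublets, which were kept in the classes and left out as an alternative. UMIs were summed per class. The 2-fold rule and the Poisson intervals were run on simulated Poisson counts, in which the changes set were larger than 2-fold. Such counts have no further spread between cells, so they cannot test that spread or changes near 2-fold. The naming of classes was not tested in this way.

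The text names all 9 genes, genes of the 7 further lists that were past 2-fold or without a UMI, and up to 3 genes most like each of the 9 (at least 50 CPM in a cluster and 100 UMIs). The 9 genes, the lists and the comparisons were chosen with earlier results of these data known. Alternatives changed the resolution, the variable genes, the limits on genes and mitochondrial UMIs, doublets, the summing, depth, the CPM added, the CPM minimum and the HC-derived cutoff. The gene matrix held depth per cell, so precision is given by counting intervals.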

Additional observations from a re-analysis of the deposited data

Results flagged for a closer look

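The matrix of added sequences held 58 EGFP UMIs in the cells kept, although the labels name only a tdTomato reporter. They were found in 8 of 38 osteocyte-like cells (12 UMIs) and 13 of 105 HC-like cells (15 UMIs) and in no blood or blood vessel class. The CRE sequence had 4 UMIs in the cells kept, against 17780 of WPRE and 309 of tdTomato. Neither sequence entered a comparison, and the source of the EGFP UMIs was not tested.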

How the results depend on the processing

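The counts of genes highest in an osteogenic class (4 to 6), past 2-fold higher in HC-like than in maturing chondrocyte-like cells (4 or 5) and past 2-fold higher in mature than in immature osteoblast-like cells (3, each time Phex, Smpd3 and Slc13a5) stayed within 1.5 times under every alternative that gave a value. At resolution 0.6 no HC-like class was found, so the second count has no value there. The count of genes past 2-fold between HC-derived and other mature osteoblast-like cells was 0, but 1 at a mitochondrial limit of 20% (Enpp1), 1 with cells thinned to 5000 UMIs (Enpp1) and 1 when other cells had no WPRE UMI (Slc20a1). At a 5% limit 4 genes were highest in an osteogenic class, and no osteocyte-like or progenitor-like class was found; a progenitor-like class was also missing at resolution 0.6 and with at least 2000 genes. Of 607 pairs of a level and a setting, for 50 levels of at least 10 CPM and 13 settings, 57 differed by over 1.5-fold. Alpl in pre-HC-like cells was at 102 CPM at the 5% limit and 112 CPM with at least 2000 genes, and Alpl in progenitor-like cells was at 314 CPM without doublet calls, when that class held 94 cells. Osteocyte-like Ank was at 117 CPM at resolution 1.5, HC-like Ank at 49.1 CPM at the 20% limit, and mature osteoblast-like Phex at 241 CPM with osteocyte-like cells kept among them. That last setting, the limits on Col2a1 and Col10a1 and the removal of doublets within a class were chosen after seeing the data. The cause of these shifts was not tested. No paired analysis was possible because the 4 sequencing entries are 1 library of 1 group. Levels of the 38 osteocyte-like cells and of genes under 10 CPM are limited by depth.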
